A study of Mus musculus with 33 samples.

Results

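The genes described here are 10 that restrain signalling from the T cell receptor (TCR) and from cytokine receptors, followed through CD8 T cells sorted from allergic mouse skin. They are the phosphatase gene Ptpn22, the PI3 kinase inhibitor gene Pik3ip1, the MAP kinase phosphatase genes Dusp1, Dusp2, Dusp4, Dusp5 and Dusp6, and the genes Socs1, Socs3 and Cish of the SOCS family. They were selected on function, by symbol, from 19447 gene symbols in the count tables of the series. Earlier results of these libraries were known at that point: GFP and treatment-arm differences at day 1 for Ptpn22 and Pik3ip1. The day 1 values by GFP state and arm are therefore given as a description, without p-values, and nothing is supported with them. All 10 members were found in both tables, and all 10 passed the filter on low counts in both experiments.

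The model is contact allergy to dinitrofluorobenzene (DNFB), with the glucocorticosteroid TA (0.01%, topical) or its vehicle acetone as treatment. Live CD45+CD8+ cells from skin were sequenced in bulk by CEL-seq2, a 3′ counting method, in 33 libraries. The first experiment (17 libraries) used Nur77GFP mice, in which GFP reports recent TCR signalling, and CD69+CD103+ cells, the phenotype of resident memory T cells. It holds GFP-negative cells at day 0, just before DNFB retest (3 acetone, 2 TA), GFP-negative and GFP-positive cells at day 1, 24 hours after retest (2 acetone and 2 TA each), and GFP-negative cells at day 6, 144 hours after retest (2 acetone, 2 TA). The second experiment (16 libraries, 2 per group) used DNFB-sensitized wild-type C57BL/6 mice. At day 2 after challenge it holds the 4 combinations of CD69 and CD103, with no treatment, and at day 11 and day 42 it holds CD69+CD103+ cells with acetone or TA. Ages and the number of animals behind a library are not given in the sources used here. No label states that the replicates of a group are different animals, and the p-values therefore speak only to the spread among the libraries, which may be technical.

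The table headers carry codes, and only some codes have a single reading. Day 0 acetone, the GFP state at day 1 and the CD69+CD103+ gate at day 2 could be named. The treatment arms of day 1 are called arm I and arm II. Sets K, L and M are day 0 TA, day 6 acetone and day 6 TA in an order that is not known. Subsets U, V and W are the other subsets of day 2, and sets P, Q, R and S are the acetone and TA sets of day 11 and day 42, again without names. No treatment was read from expression values.

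Each of the 10 proteins restrains signalling at or below a receptor. PTPN22 removes phosphate from Lck and ZAP-70, the kinases next to the TCR, and PIK3IP1 is a membrane protein that inhibits PI3 kinase. DUSP proteins remove phosphate from MAP kinases: DUSP1, DUSP2, DUSP4 and DUSP5 act in the nucleus and DUSP6, selective for ERK, in the cytoplasm. SOCS1, SOCS3 and CISH are induced by JAK-STAT signalling and dampen it in turn. Several of these genes are themselves switched on by the signal that they limit, so their RNA can be high in stimulated cells.

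Totals ran from 2442825 to 8515297 counts per library in the first experiment and from 2937814 to 13629838 in the second, with 22.2 to 36.7% and 12.8 to 21.3% on mitochondrial transcripts. The CD8 T cell genes were present throughout, with Cd3e at 384.8 to 1670 CPM (counts scaled to 1000000 per library) in the first experiment and 438 to 1117 in the second, while Cd4 stayed at or below 2.72. Itgae, which encodes CD103, stood at 68.3 and 88.3 CPM in day 2 CD69+CD103+ cells, 1.13 to 7.09 in subsets U and V, and 83.7 and 84.4 in W. Keratinocyte transcripts were found in every library: at least 14 of 16 marker genes were detected, and their sum ran from 503 to 7269 CPM in the first experiment and 2330 to 8579 in the second. Log2 fold changes are given with their standard error from edgeR's quasi-likelihood test after TMM scaling, and "called" means an adjusted p under 0.05 over all genes of an experiment. In bulk samples fewer cells that express a gene and less RNA per cell cannot be told apart.

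The promoters of Dusp1 and Socs3 are printed because Dusp1 was called between times and Socs3 between subsets of the second experiment, and each window holds a motif of a signal-dependent factor. Both sequences come from the RefSeq start site table (GRCm38.p6) and are trimmed to the stretch outside annotated exons. They run toward the start site on the minus strand. In the GENCODE annotation both stretches lie inside the gene, which begins further upstream, at 26562128 for Dusp1 and at 117970047 for Socs3. Promoter here thus means only the bases before the RefSeq start. Capitals mark a cyclic AMP response element in Dusp1 and a STAT motif in Socs3.
Dusp1 promoter, chr17:26508520-26508722: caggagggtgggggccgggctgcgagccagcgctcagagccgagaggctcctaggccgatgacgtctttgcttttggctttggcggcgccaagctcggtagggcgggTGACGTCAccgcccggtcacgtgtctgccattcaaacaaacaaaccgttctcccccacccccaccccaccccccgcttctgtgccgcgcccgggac
Socs3 promoter, chr11:117969452-117969616: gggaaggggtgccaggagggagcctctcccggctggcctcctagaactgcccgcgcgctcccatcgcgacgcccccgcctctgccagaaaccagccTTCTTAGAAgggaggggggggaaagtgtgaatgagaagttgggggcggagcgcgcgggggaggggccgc

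The windows searched were the 250 bases before the RefSeq start site, on both strands, for 9 of the 10 members. Those of Pik3ip1, Dusp5 and Cish lie wholly in annotated exons (250 bases each), and those of Pik3ip1 and Cish lie inside the annotated gene. A motif missing from a window says nothing about sequence outside it. TGACGTCA was found in Dusp1 alone of these 9 and in 1.55% of 32851 such windows of the genome. TTCNNNGAA was found in Socs3 alone and in 7.02% of windows. TGANTCA (AP-1), GTAAACA (FOXO) and AGAACA (a glucocorticoid receptor half-site) were found in none of the 9, against 6.75%, 3.17% and 16.1% of all windows. GGAAA, the core of NFAT sites, was found in 5 of the 9 (Pik3ip1, Dusp5, Dusp6, Socs1 and Socs3) and in 55.6% of windows. These are matches of letters only. On GRCm38, Ptpn22 lies on chromosome 3 (103859795 to 103912247, plus strand), Dusp2 on chromosome 2 (127336159 to 127338376, plus) and Pik3ip1 on chromosome 11 (3330401 to 3342971, plus). Pik3ip1, Dusp1, Dusp5, Cish and Ptpn22 overlap annotated genes on the opposite strand, and since the strand setting of the counting is not given, reads of those partners cannot be told apart.

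At day 0 with acetone the levels of Dusp2, whose product inactivates nuclear MAP kinases, were 57.8, 57.4 and 63.6 CPM. At day 1 the GFP-positive cells had 529.5 and 482 in arm I and 667 and 586.5 in arm II. Every GFP-positive library was far above every day 0 library (log2 3.55 ± 0.20, 4 libraries against 3, adjusted p = 7.84e-11). In this comparison 5 of the 10 members were called, 4 higher and 1 lower, against 25.6% of all genes tested. Its day 1 mean takes in the acetone and the TA arm and its reference acetone alone, so retest and treatment are mixed in it. The median log2 fold change was 1.07 over the members and -0.18 over all genes. Because members were selected on function with part of the day 1 results known, that share is not independent evidence of a direction. Other transcripts differed as well: from day 0 to the GFP-positive cells of day 1, keratinocyte genes went from 3491 to 4092 CPM in sum to 1396 to 1734 in arm I and 609 to 745 in arm II. The 9 CD8 T cell genes listed went from 6712 to 8106 to 2543 to 2765 and 3485 to 3603, and neutrophil genes from 2.87 to 19.2 to 76.5 to 86.0 and 11.6 to 38.9. Their part in the member values was not tested.

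Ptpn22 also rose in day 1 GFP-positive cells (log2 1.495 ± 0.122, adjusted p = 2.07e-08). It went from 279.8, 260.2 and 359 CPM to 565 and 523 in arm I and 803 and 889 in arm II. Day 1 GFP and arm differences of Ptpn22 and Pik3ip1 were known at selection, so p-values of both genes in this comparison are not independent evidence. Cish, which competes with STAT5 for cytokine receptors, rose from 182 ± 45.3 to 400.5 ± 65.0 CPM (SD, n = 3 and 4; log2 1.46 ± 0.16, adjusted p = 1.41e-06). Socs1, an inhibitor of JAK kinases, rose from 262.5 ± 40.3 to 446 ± 83.1 CPM (log2 1.07 ± 0.17, adjusted p = 1.10e-04). All 4 members that rose had every day 1 GFP-positive library above every day 0 library.

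Dusp1 went the other way. Its day 0 levels were 651, 516 and 574.5 CPM, and day 1 GFP-positive levels were 311, 256, 349 and 300.1 (log2 -0.62 ± 0.12, adjusted p = 7.26e-04). The fall is larger in CPM than in the log2 value, which includes the TMM factors. Dusp4, which acts on ERK and JNK in the nucleus, stood at 22.3 ± 9.95 against 12.6 ± 2.54 CPM and missed the threshold (log2 1.07 ± 0.40, adjusted p = 0.0551). It was called without either arm II GFP-negative library (0.0478 and 0.0487) or without arm II GFP-positive B (0.0380), and Pik3ip1 was called lower without that last library (-1.59, adjusted p = 0.0162). With all libraries Pik3ip1, Dusp5, Dusp6 and Socs3 were not called. Dusp5 had only 5 to 71 reads in a library of the first experiment, so its log2 value of 1.60 ± 0.77 is imprecise.

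In GFP-negative cells, averaged over the arms, the same 5 genes were called against day 0, against 7.02% of all genes. The reference again holds no TA. The median was 0.89 over the members and -0.12 over all. Here too the share is not independent evidence, since part of the day 1 results was known. Dusp2 rose (log2 1.48 ± 0.18, adjusted p = 2.70e-05) and so did Ptpn22 (1.31 ± 0.12, 8.73e-07), Socs1 (1.06 ± 0.17, 5.94e-04) and Cish (0.72 ± 0.16, 0.00820), while Dusp1 fell by 0.47 on the log2 scale (SE 0.12, adjusted p = 0.0244). The means hide an unequal pair of arms. Ptpn22 stood at 307.5 and 387 CPM in arm I, overlapping the day 0 libraries, and at 1211 and 1274 in arm II. Its rise over the mean of the arms thus draws on the arm difference known at selection, and its p-value is not independent evidence. Dusp2 stood at 61.9 and 94.2 in arm I and 266 and 289 in arm II. The call of Dusp1 was lost without library A of day 0, without library A of arm I GFP-negative cells and without library B of arm II GFP-negative cells (adjusted p 0.0926, 0.0556 and 0.0615). That of Cish was lost without day 0 library B or C or without library B of arm I GFP-negative cells (0.0772, 0.0516 and 0.0569). Socs3 was called lower without library B of arm II GFP-negative cells (-1.47, adjusted p = 0.0460).

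**Figure D1:**
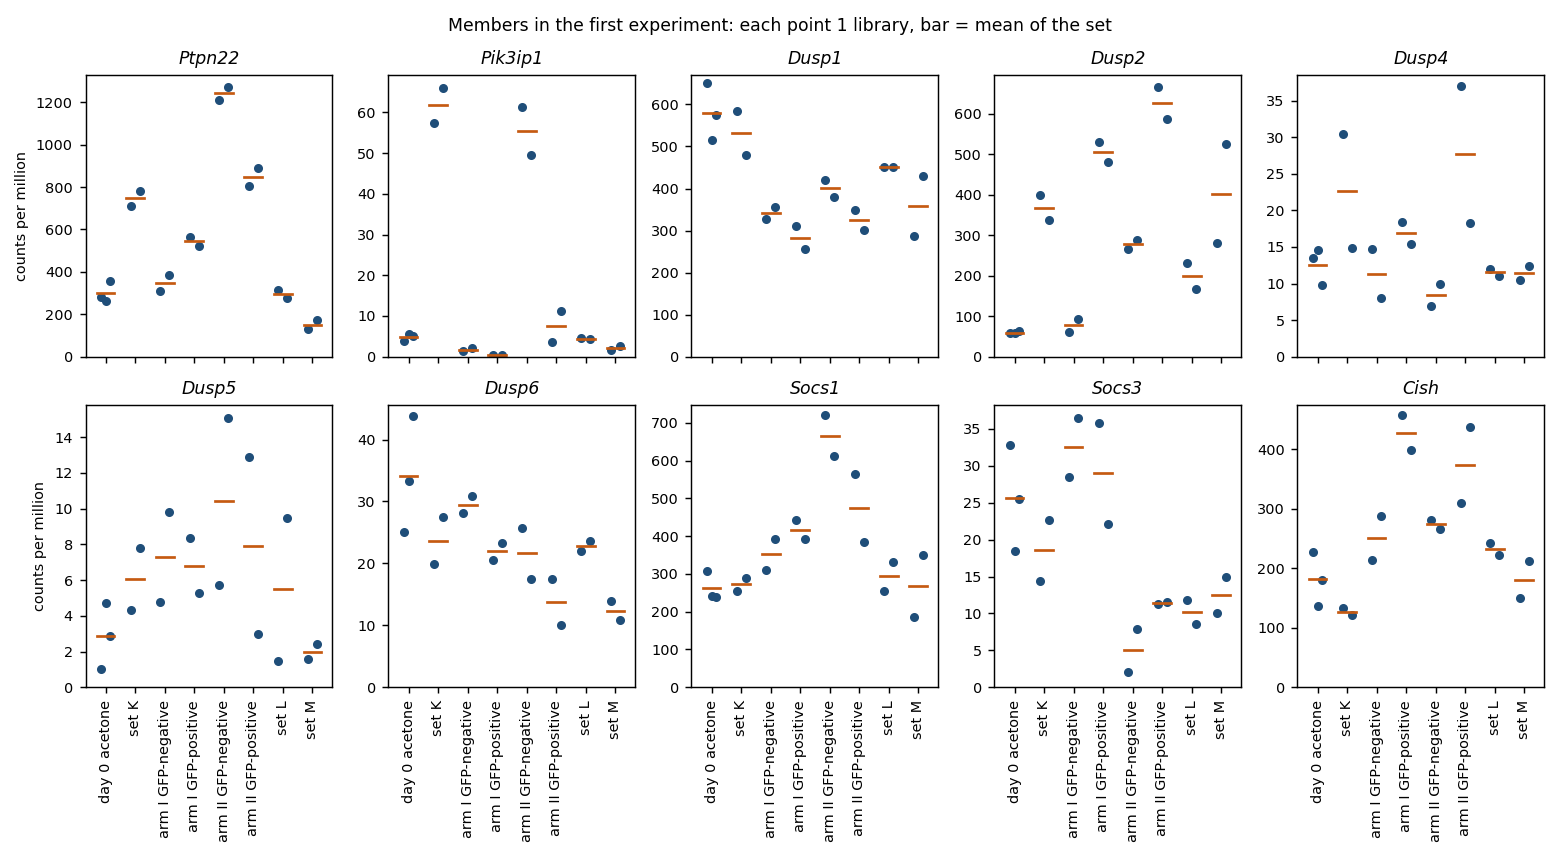
Levels of the 10 members in the first experiment, in CPM on linear axes that start at 0, by sorted set. Each point is 1 library and each bar the mean of a set. Pik3ip1 is above 49 in set K and in arm II GFP-negative cells and at or below 11.2 elsewhere, and Dusp2 is lowest in day 0 acetone and arm I GFP-negative cells.

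The day 1 cells show how the members differ by GFP state and arm, values given here as a description. Pik3ip1 had 61.4 and 49.6 CPM in GFP-negative cells of arm II and 3.68 and 11.2 in the GFP-positive cells of that arm. In arm I it had 1.29 and 2.08 in GFP-negative cells and 0.470 and 0.477 in GFP-positive cells. The last pair rests on 4 and 3 reads. In each arm the GFP-negative libraries were the higher ones, and in each GFP state those of arm II were, without overlap. The GFP difference in log2 was -1.63 ± 0.67 in arm I and -2.80 ± 0.53 in arm II, and the arm difference was 4.97 ± 0.59 among GFP-negative cells and 3.80 ± 0.65 among GFP-positive ones, or 2.74 without arm II GFP-positive B.

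Dusp2 and Ptpn22 had GFP differences of unequal size in the arms. For Dusp2, GFP-positive exceeded GFP-negative cells by 2.86 ± 0.24 on the log2 scale in arm I and by 1.28 ± 0.23 in arm II. Its GFP-positive levels were similar, 482 to 667 CPM over both arms, and the GFP-negative levels were the ones apart. For Ptpn22 the GFP difference was 0.81 ± 0.15 in arm I and -0.45 ± 0.15 in arm II, where GFP-negative cells held the highest levels of the experiment.

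Among the other phosphatases, Dusp4 had 7.0 and 9.9 CPM in GFP-negative and 37.1 and 18.3 in GFP-positive cells of arm II (log2 1.81 ± 0.54), and 14.7 and 8.01 against 18.4 and 15.4 in arm I (0.72 ± 0.51). Dusp1 differed little by GFP state, by -0.11 ± 0.16 in arm I and -0.20 ± 0.16 in arm II. Dusp6 was at 10.1 to 30.9 CPM in all 8 day 1 libraries.

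Within the SOCS family the members parted. Socs3, best known as a brake on STAT3 downstream of IL-6 family receptors, had 28.5 and 36.5 CPM in GFP-negative cells of arm I and 2.05 and 7.94 in those of arm II (log2 -2.74 ± 0.55). That difference was -2.09 without library A of arm II GFP-negative cells and -4.03 without library B. Socs1 had 311 and 394 CPM in arm I and 720.5 and 612 in arm II (0.87 ± 0.22). Cish had 214.5 and 288 against 281 and 266 CPM, overlapping between the arms (0.08 ± 0.21). Cish differed instead by GFP state, by 0.93 ± 0.21 in arm I and 0.55 ± 0.21 in arm II.

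By the threshold used across all genes, 4 members passed for GFP state averaged over the arms (Dusp2, Dusp4 and Cish higher, Pik3ip1 lower in GFP-positive cells), against 12.1% of genes, 3 in arm I against 5.36% and 3 in arm II against 8.07%. Between the arms 5 passed in GFP-negative cells, against 6.69%, and 1 in GFP-positive cells, against 3.17%. For the difference between the arms in the GFP difference 2 passed, Dusp2 (-1.59 ± 0.32) and Ptpn22 (-1.26 ± 0.22), against 0.889%. Nothing is read from these counts, since the day 1 contrasts bore on the choice of members. Other transcripts moved with the arms: keratinocyte genes summed to 2916 and 3216 CPM in GFP-negative cells of arm I against 503 and 661 in arm II, mononuclear phagocyte genes to 898 and 939 against 65.1 and 90.9, and the 8 glucocorticoid-induced genes listed (such as Tsc22d3 and Fkbp5) to 362 and 477 against 1254 and 1334. Their part in the member values was not tested.

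Among day 0 acetone and sets K, L and M, 4 members differed in an F test over the 4 sets, against 9.5% of all genes: Ptpn22 (adjusted p = 1.70e-08), Dusp2 (3.72e-08), Pik3ip1 (1.25e-06) and Dusp1 (0.0312). When 1 library was left out, 3 or 4 were called. The pairwise contrasts that follow were chosen after the values were seen. Dusp2 was higher in each of the 3 sets than at day 0, at 399 and 338 CPM in K, 232 and 168 in L and 281 and 525 in M. No library of K, L or M overlapped the day 0 range of 57.4 to 63.6. The log2 differences were 2.79 ± 0.21, 1.72 ± 0.20 and 2.89 ± 0.21 (adjusted p = 4.86e-08, 6.99e-05 and 5.68e-08).

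Pik3ip1 and Ptpn22 were highest in set K among these 4 sets. Pik3ip1 was at 57.4 and 66.1 CPM against 3.87, 5.59 and 5.16 at day 0 (log2 3.80 ± 0.47, adjusted p = 3.39e-05), and at 4.61 and 4.28 in L and 1.56 and 2.71 in M. Ptpn22 was at 710.5 and 782 CPM in K (log2 1.48 ± 0.14, adjusted p = 1.04e-06), at 315 and 279 in L, within the day 0 range, and at 131 and 171 in M (-0.84 ± 0.14, adjusted p = 0.00139). Thus K was above and M below the day 0 libraries for Ptpn22, without overlap. The libraries of K and of arm II GFP-negative cells also stood apart in quality, with 34.9 to 36.7% of counts on mitochondrial transcripts. The other libraries of the experiment had 22.2 to 31.5%. Totals of K and of arm II GFP-negative cells were low, 2442825 to 2952120 counts, but arm II GFP-positive B, at 2678738, lay within that range. The part of depth and RNA quality in the Pik3ip1 and Ptpn22 levels was not tested. Dusp1 was at 585 and 480 CPM in K, 450.1 and 452 in L and 288 and 429 in M (M against day 0 -0.55 ± 0.15, adjusted p = 0.0398). Dusp6 was at 13.9 and 10.9 CPM in M, below the day 0 range of 25.05 to 43.9. It missed the threshold by edgeR (-1.30 ± 0.38, adjusted p = 0.0597) and was called lower by DESeq2 (-1.28, adjusted p = 0.00841).

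Against day 0, 3 members were called in K, all higher, against 3.53% of genes. In L 1 was called, against 0.897%, and in M 3, against 4.56%. The calls in M rest partly on 1 library: without library A of set M, Ptpn22 (adjusted p = 0.0857) and Dusp1 (0.706) were no longer called. That library was the lower of the pair for 9 of the 10 members, Dusp6 being the exception. Dusp1 in M also missed the threshold without day 0 A, B or C, arm I GFP-positive A, either arm II GFP-negative library or either library of L (adjusted p 0.0502 to 0.194) and without the filter on low counts (0.0679). The members that feed back on cytokine signals did not pass in any of the 3 sets: Socs1 had 187 to 351 CPM over these 6 libraries, Cish 121 to 241 and Socs3 8.56 to 22.7. Keratinocyte genes summed to 1921 and 2015 CPM in K, 1161 and 1219 in L and 7003 and 7269 in M, against 3491 to 4092 at day 0, and the glucocorticoid-induced list to 1408 and 1448, 508 and 545, and 509.5 and 678, against 387 to 694. Their part was not tested.

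**Figure D2:**
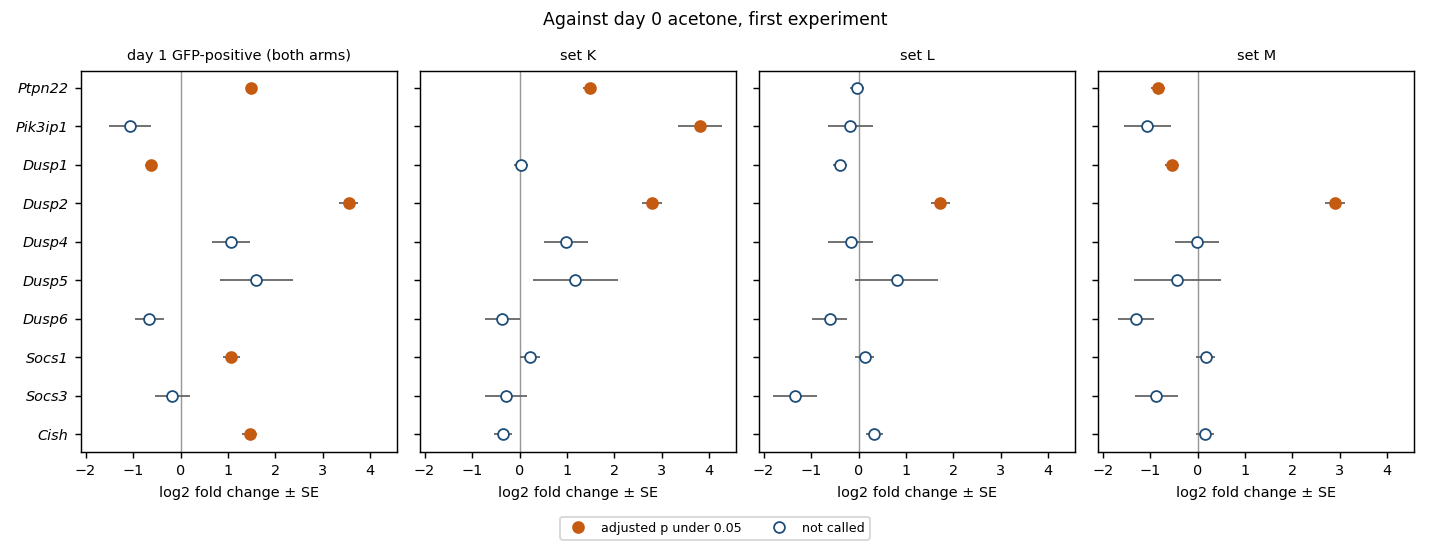
Log2 fold change of each member against day 0 acetone (x axis, bars ± SE) for day 1 GFP-positive cells and for sets K, L and M. Filled points have an adjusted p under 0.05. Dusp2 is filled and above 1.7 in all 4 panels, and Pik3ip1 is filled in set K alone.

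Levels of Ptpn22 and Pik3ip1 are plotted against each other to show where both were high. In the first experiment the 4 libraries of set K and of arm II GFP-negative cells had at least 710.5 CPM of Ptpn22 and 49.6 of Pik3ip1. The GFP-positive cells of arm II kept Ptpn22 at 803 and 889 CPM with Pik3ip1 at 3.68 and 11.2, so a high level of one went without a high level of the other. In the second experiment Pik3ip1 stayed between 1.18 and 22.7 CPM, while Ptpn22 ran from 720.0 to 1820.

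**Figure D3:**
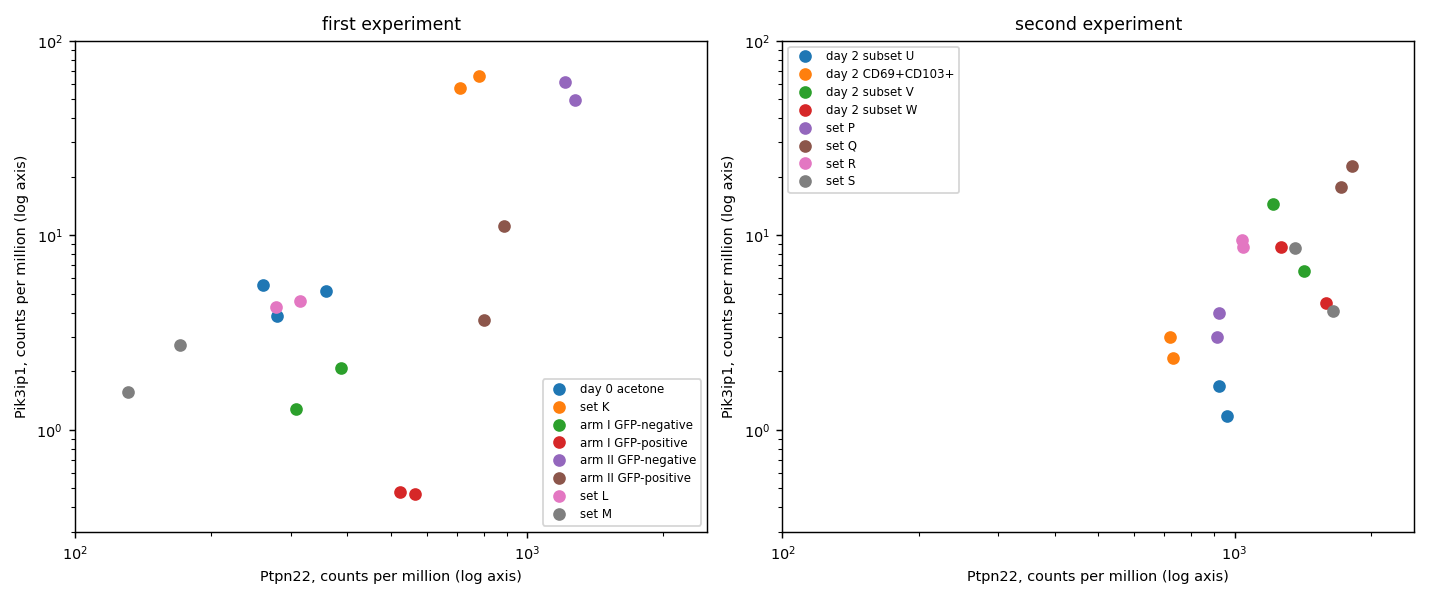
Ptpn22 (x axis) against Pik3ip1 (y axis), both in CPM on log axes, 1 point per library, coloured by set, with 1 panel per experiment. Set K and arm II GFP-negative cells lie at the top right of the first panel, and set Q is highest for both genes in the second.

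At day 2 the CD69+CD103+ cells had the lowest Ptpn22 of the 4 subsets, 731 and 720.0 CPM, against 925 to 1593 in the 6 other libraries (log2 -0.69 ± 0.13, adjusted p = 0.0228). This was the only member called, against 0.368% of genes, and the call was lost without either CD69+CD103+ library (adjusted p = 0.314 and 0.584) or without V 1 (0.0605). In the F test over the 4 subsets 2 members were called, Ptpn22 (adjusted p = 0.00643) and Socs3 (0.0228), against 1.21% of genes. Only 1 of them was called without U 1, without CD69+CD103+ 2 or without V 1, and 4 members were called without U 2.

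Socs3 divided the subsets into pairs. It was at 114 and 109 CPM in V and 72.3 and 99.6 in W, and at 23.3 and 32.8 in U and 43.5 and 36.7 in CD69+CD103+ cells. The V and W libraries were all above the other 4 (CD69+CD103+ and U against V and W, log2 -1.52 ± 0.27, adjusted p = 0.00441). Ptpn22 followed the same split, with 964 and 925 CPM in U and 1422, 1219, 1269 and 1593 in V and W (-0.71 ± 0.11, adjusted p = 0.00140).

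In that split, made after the values were seen, 2 of 10 members were called, against 1.66% of genes. Pik3ip1 stood at 4.51 to 14.5 CPM in V and W and at 1.18 to 2.98 in the rest and was not called by edgeR (-2.08 ± 0.58, adjusted p = 0.0905), though it was by DESeq2 (-2.07, adjusted p = 0.00550). Dusp2 was at 1101 to 1794 CPM in V and W and at 838 to 1462 in the rest (-0.56 ± 0.14, adjusted p = 0.0571), and it was called without U 2 (0.00718) or without any of P 1, P 2, Q 1, Q 2 and R 2 (0.0339 to 0.0472). Socs1 was called lower in that split without U 2 (-1.32, adjusted p = 0.00290). The other ways to pair the subsets gave 0 calls among the members by edgeR, with 2 members at an unadjusted p under 0.05 in each, and 0 by DESeq2, against 0.0327% of genes for CD69+CD103+ and V and 0.302% for CD69+CD103+ and W. Without U 2, which had 169 CPM of Socs1 where U 1 had 38.1, Socs1 was called in the pairing with W (1.26, adjusted p = 0.00939).

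Between day 2 and the later days, within the CD69+CD103+ gate, Dusp1 gave the largest difference of the 10. It was at 137 and 130 CPM at day 2, and at 538 and 518 in set P, 369 and 433 in Q, 766.5 and 733 in R and 1086 and 854 in S. The 8 later libraries were all above both day 2 libraries (log2 2.22 ± 0.18, adjusted p = 1.57e-07). The 6 libraries of the other day 2 subsets were at 60.3 to 123 CPM. Ptpn22 was higher in the later sets as well, from 731 and 720.0 to between 917 and 1820 CPM (0.79 ± 0.13, adjusted p = 4.98e-04). The day 2 cells had no treatment and all later ones had acetone or TA, so day and treatment cannot be told apart in this comparison.

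In all 2 of 10 members were called, both higher, against 8.21% of genes, with a median of 0.50 over the members and -0.08 over all. Socs1 stood just outside the threshold, at 138 and 167 CPM against 270.2 to 580.5 with no overlap (1.31 ± 0.39, adjusted p = 0.0542), and was called without U 1 or U 2 (7.24e-04 and 7.71e-04). Socs1 was also called by DESeq2 (adjusted p = 0.00116), without the filter on low counts (3.08e-07) and with median-of-ratios size factors (0.0456). DESeq2 called Pik3ip1 higher too (1.62, adjusted p = 0.0397), which edgeR did not (1.58, adjusted p = 0.192). Dusp4 (-0.93 ± 0.30, adjusted p = 0.0660) and Dusp2 (-0.45 ± 0.15, 0.0849) were lower without a call. Without the filter Dusp4 and Dusp2 were called (0.0193 and 0.0379). Both were called without Q 2 (0.0112 and 0.0366), Dusp2 also without U 1 or U 2 (0.0295 and 0.0305) and Dusp4 also without R 1 or S 2 (0.0259 and 0.0460).

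A list of 14 immediate early and heat shock genes that respond to tissue dissociation, which holds none of the members, moved with Dusp1. It summed to 6790 and 6823 CPM in CD69+CD103+ cells at day 2, 5266 to 6623 in the other subsets, and 11120 to 25470 in the later sets. Fos stood at 160.1 and 174.5 CPM at day 2 and between 287 and 1423 later. Among the later sets, both the list and Dusp1 were lowest in Q and higher in R and S than in P. The list was higher in R than in S (means of 24070 and 19200 CPM), whereas Dusp1 was higher in S. In the first experiment the list had a mean of 8574 CPM at day 0 with acetone. It had 8660 and 9693 in the day 1 GFP-positive cells of arm I and arm II, where Dusp1 was lower than at day 0. Other lists differed between day 2 CD69+CD103+ cells and the later sets too. Neutrophil genes went from 123 and 131 CPM in sum to between 2.72 and 18.3, with S100a8 from 65.3 and 77.3 to 0, the glucocorticoid-induced list from 487 and 537 to between 913 and 2224, and STAT5 and interferon targets from 1575 and 1645 to between 503 and 970. The part of these lists in the member results was not tested.

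**Figure D4:**
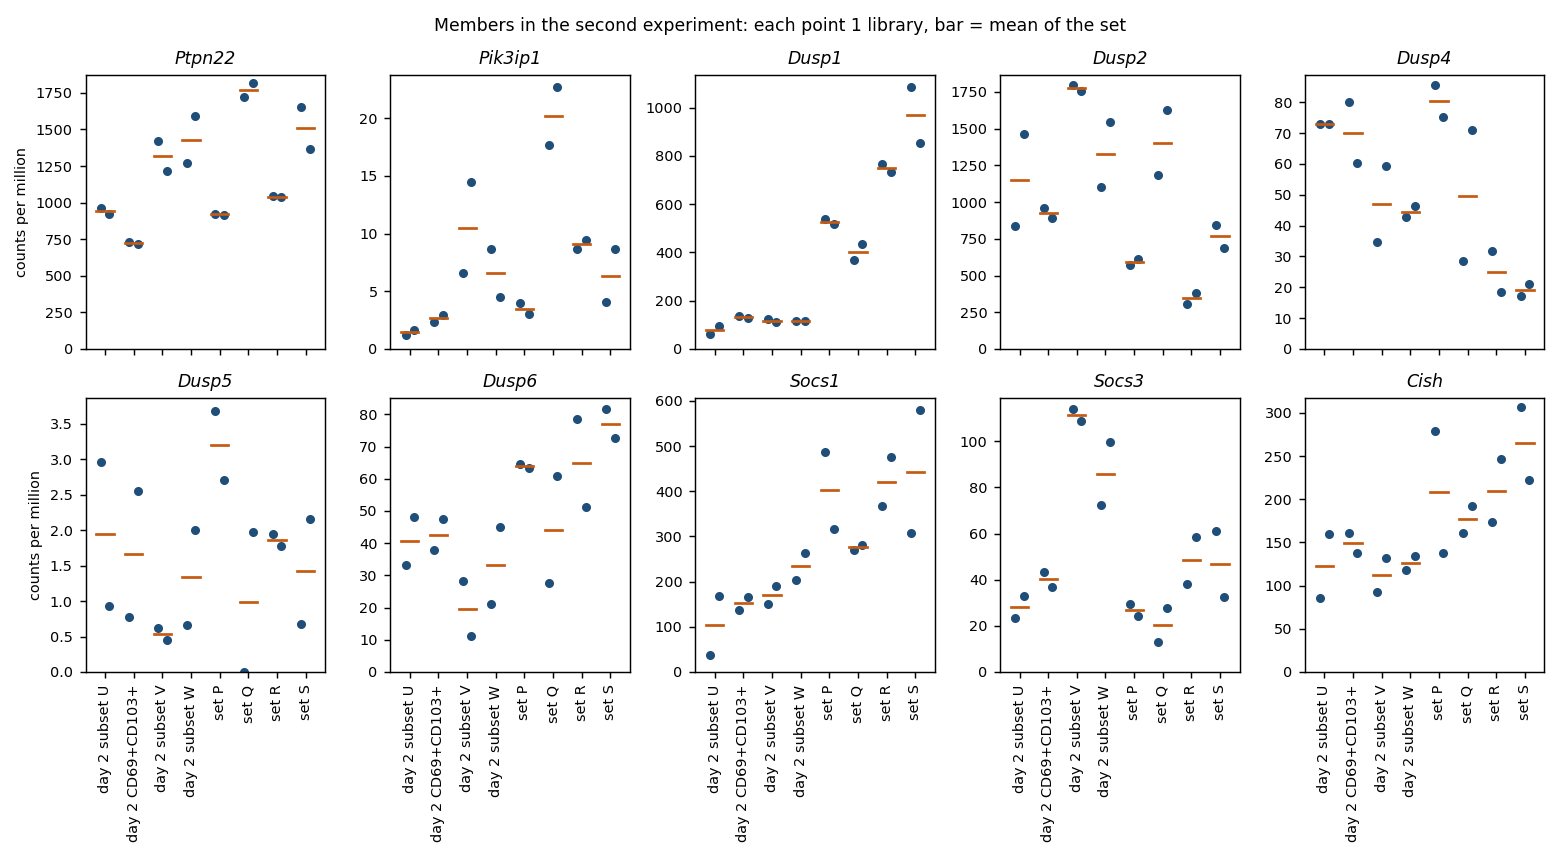
Levels of the 10 members in the second experiment, in CPM on linear axes that start at 0, by sorted set. Each point is 1 library and each bar the mean of a set. Dusp1 is at or below 137 in the 8 day 2 libraries and at or above 369 in the 8 later ones, and Socs3 is highest in subsets V and W.

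Among the 4 sets of day 11 and day 42, 4 members differed in an F test, against 2.12% of genes: Dusp2 (adjusted p = 5.56e-05), Ptpn22 (0.00220), Dusp1 (0.0103) and Dusp4 (0.0216). Without S 1 only 2 of them were called. The sets can be paired in 3 ways, and treatment is one of them and day another, without the headers telling which. In R and S against P and Q, 3 members were called, against 1.67% of genes. Dusp1 was higher (0.81 ± 0.14, adjusted p = 0.00356), with every R and S library above every P and Q library. Dusp4 was lower, at 31.7, 18.4, 17.0 and 20.9 CPM against 85.6, 75.1, 28.5 and 70.9 (-1.59 ± 0.30, adjusted p = 0.00789). Its ranges overlapped through Q 1. Socs3 was higher without overlap, at 32.7 to 60.9 against 12.9 to 29.3 CPM, and was not called (0.94 ± 0.27, adjusted p = 0.0981). It was called without Q 2 (0.0324), without the filter on low counts (0.0422) and by DESeq2 (0.0200).

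Dusp2 was called in both of the first 2 pairings. It had 573 and 612 CPM in P, 1181 and 1629 in Q, 309 and 379.7 in R and 846.5 and 687 in S. R and S were lower than P and Q by 0.91 on the log2 scale (SE 0.14, adjusted p = 0.00200), with overlap through P and S. Q and S were higher than P and R without overlap (1.19 ± 0.14, adjusted p = 8.29e-04).

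Ptpn22 followed the pairing of Q with S alone. It was at 1719 and 1820 CPM in Q and 1651 and 1363 in S, against 922 and 917 in P and 1043 and 1040.0 in R (0.73 ± 0.11, adjusted p = 0.00441), and the groups did not overlap. These 2 members were the calls of that pairing, against 0.474% of genes. In Q and R against P and S none of the members was called by edgeR or DESeq2, with 2 at an unadjusted p under 0.05, against 0.4% of genes. Pik3ip1 was at 17.7 and 22.7 CPM in Q and 8.68 and 9.48 in R, all above P (4.005 and 3.003) and S (4.09 and 8.64), and was not called (1.60 ± 0.56, adjusted p = 0.319). Fibroblast genes summed to 158 and 388 CPM in Q and 352 and 399.8 in S against 22.5 to 90.7 in P and R. Their part in the member values was not tested.

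**Figure D5:**
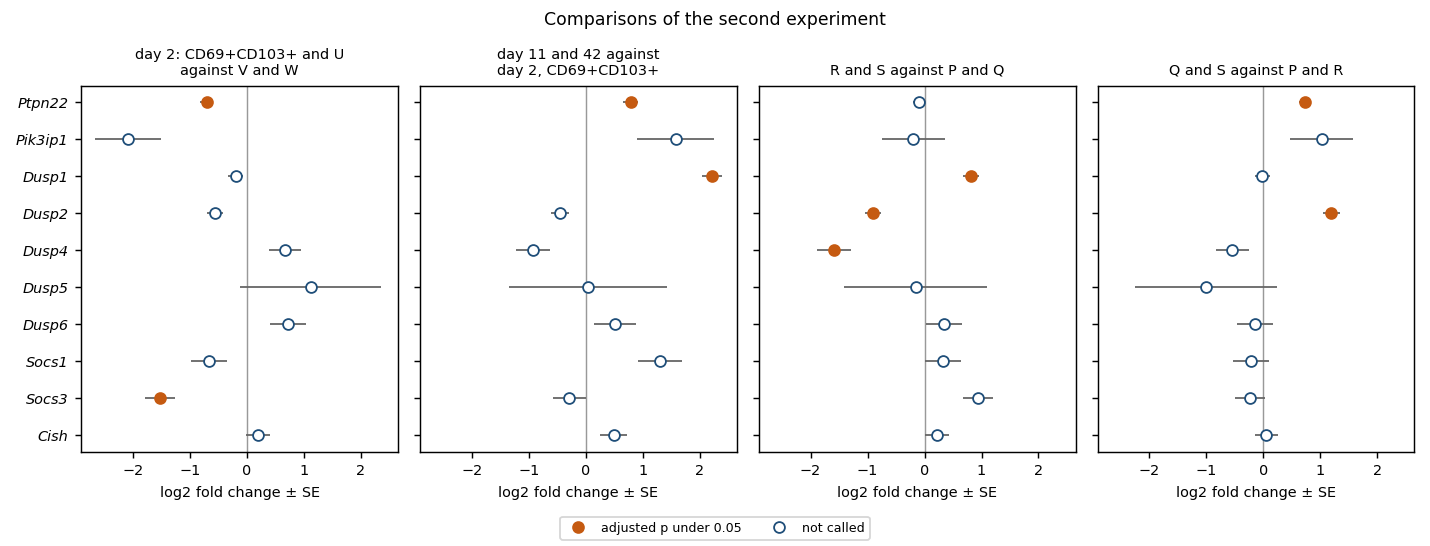
Log2 fold change of each member (x axis, bars ± SE) in 4 comparisons of the second experiment. Filled points have an adjusted p under 0.05. Dusp1 is filled for the later days against day 2 and for R and S against P and Q, and Ptpn22 and Dusp2 are filled for Q and S against P and R.

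Over all sets, Ptpn22 and Dusp2 changed most often and Dusp5 and Dusp6 were called in no comparison by edgeR with all libraries. This tally is a description: the comparisons share libraries, some bore on the choice of members, and others were chosen after the values were seen. Ordered by mean in the first experiment, Ptpn22 ran from M (151 ± 28.1 CPM) through L, day 0 and arm I GFP-negative cells, whose libraries overlapped, to arm I GFP-positive cells (544 ± 29.6), K (746 ± 50.7), arm II GFP-positive cells (846 ± 60.9) and arm II GFP-negative cells (1243 ± 44.5), each without overlap with its neighbours. Dusp2 ran from day 0 (59.6 ± 3.47) and arm I GFP-negative cells (78.1 ± 22.8), which overlapped, to arm II GFP-positive cells (627 ± 56.9). Dusp6 ranged from 10.1 to 43.9 CPM in the first and 11.1 to 81.7 in the second experiment, and Dusp5 from 1.02 to 15.1 and from 0 to 3.69. Dusp5 had no read in Q 1.

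Genes most like a member in pattern were taken from 5433 genes at 20 CPM or more in the highest set, by Pearson correlation of log2 CPM over the 17 libraries of the first experiment, which share depth and arm. For Pik3ip1 these were Serinc3 (r = 0.960), Tmem106b (0.954) and 2310014L17Rik (0.933), with r of 0.669, 0.618 and 0.409 over the 16 libraries of the second. For Ptpn22 they were Nfil3 (0.930), Gpr171 (0.909) and Malt1 (0.908), with 0.332, 0.615 and 0.505. For Dusp2, Snx5 (0.819), Srp68 (0.805) and Bloc1s2a (0.802) did not keep the pattern in the second experiment, at -0.20, -0.06 and 0.12.

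Other genes of the same pathways were counted from lists of 60 further brakes and 48 signalling parts (receptor chains, kinases, adaptors and STATs). In day 1 GFP-positive cells against day 0, 7 of 58 further brakes tested were higher and 10 lower, where 25.6% of all genes were called, so the list lies near the background. Sla, an adaptor that lowers TCR levels, was higher (3.55 ± 0.36, adjusted p = 4.33e-07), as was the ubiquitin ligase gene Cblb (2.68 ± 0.36, 1.16e-05), and the TCR adaptor gene Sit1 was lower (-2.49 ± 0.26, 4.52e-07). Of 47 signalling parts 10 were higher and 6 lower, with Zap70 at 1.74 ± 0.19 and Stat3 at 1.81 ± 0.15 (adjusted p = 9.82e-07 and 3.85e-08) and Mapk3, which encodes ERK1, at -2.13 ± 0.23 (7.16e-07).

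In set K against day 0, where 3.53% of all genes were called, 1 of 58 further brakes was higher and 3 were lower, among them Socs2 (-2.42 ± 0.40, adjusted p = 0.00103), a relative of Cish, while Cblb was higher (1.55 ± 0.39, 0.0306). Of 47 signalling parts 2 were higher and 2 lower: Ifngr1, a chain of the interferon gamma receptor (0.85 ± 0.19, adjusted p = 0.0131), and Lat, the TCR scaffold (0.56 ± 0.15, 0.0425), were higher, and the common cytokine receptor chain gene Il2rg (-0.89 ± 0.12, 1.07e-04) and Nras (-1.12 ± 0.28, 0.0297) lower. From untreated day 2 cells to the acetone and TA sets of the later days, 6 of 60 further brakes were higher and 3 lower. Of all genes 8.21% were called. Spry2, an inhibitor of Ras-ERK signalling, rose (2.96 ± 0.48, adjusted p = 4.77e-04) and Sla fell by 1.67 on the log2 scale (SE 0.26, 3.71e-04). Of 48 signalling parts 3 were higher and 6 lower, including Stat4 (-1.82 ± 0.25, 7.41e-05) and Stat5a (-2.32 ± 0.33, 1.28e-04).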

How the data were processed

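CEL-seq2 libraries of skin CD8 T cells (33 in all) were analysed from 2 deposited tables of raw gene counts. GRCm38, bcl2fastq 2.2, BWA 0.7.15 and HTSeq are named in the submitters' processing notes. Molecular barcode collapse and strand use are not given in the sources used here. Rows of spiked control RNA, with at most 16 reads in a library, were dropped. Totals per library lay between 2442825 and 13629838 counts, and CPM scale each to 1000000. Groups were read from headers only where the labels leave 1 reading.

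Tests were run with edgeR 4.0.16 in R 4.3.3 (filterByExpr by set, TMM, robust dispersions, quasi-likelihood F test, 1 mean per set, all libraries of an experiment: 11588 and 12236 genes), with Benjamini-Hochberg adjustment over all genes and calls under 0.05. The standard error is the log2 fold change over the square root of F. On simulated data for set K against day 0 (11044 genes) the fit recovered 41% of genes changed 2-fold and 88% of those changed 4-fold. For the later days against day 2 (11718 genes) it recovered 37% and 90%. False calls numbered 4 and 8. These shares pool the changed genes, and recovery at low CPM was not tested separately. Missing calls of low members, such as Pik3ip1 and Dusp5, or Dusp4 and Socs3 in the first experiment, cannot be judged by them.

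Members, gene lists and motifs were chosen with earlier results of these data known. Named besides the 10 members are up to 4 called genes of each pathway list by smallest p, and, for the 3 members of widest range at 20 CPM or more, the 3 genes of highest correlation (pseudocount 1). Contrasts within arms, of single sets with day 0, and of pairs of subsets or sets were added after the design was written. Alternatives were DESeq2 1.42.0, median-of-ratios size factors in edgeR, no filter on low counts, removal of mitochondrial transcripts, a replicate block and leaving out each library. TMM factors enter the log2 fold changes but not the CPM, so the 2 can differ. The factors were 1.02 to 1.16 at day 0 with acetone and 0.83 to 0.94 in day 1 GFP-positive cells. Between these sets a fall is therefore larger, and a rise smaller, in CPM than in the log2 fold change.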

Additional observations from a re-analysis of the deposited data

Results flagged for a closer look

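For 2 members the estimated GFP difference at day 1 was unlike in the treatment arms, past the threshold used across all genes in the interaction term of the edgeR fit. For Ptpn22 the GFP difference of arm II minus that of arm I was -1.26 on the log2 scale (SE 0.22), from 0.81 in arm I and -0.45 in arm II. For Dusp2 it was -1.59 (SE 0.32), from 2.86 in arm I and 1.28 in arm II, and it fell short of that threshold without arm I GFP-negative A, arm I GFP-positive A or arm II GFP-positive B. Day 1 differences of Ptpn22 were known when the members were chosen, so these values are a description and not independent evidence.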

How the results depend on the processing

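No member reversed direction with a call on either side under any alternative run. Of 45 calls with a direction, 34 held under every alternative and 11 were lost under at least 1. These calls include the day 1 contrasts by GFP state and arm, which bore on the choice of members and remain a description. Counts of members called moved by over 1.5 times in these cases. Arm II against arm I in GFP-positive cells went from 1 to 2 with size factors by median of ratios and with DESeq2. The 4 subsets of day 2 went from 2 to 4 without the filter and 5 with DESeq2, CD69+CD103+ and U against V and W from 2 to 4 with either, and the later days against day 2 from 2 to 5 without the filter and 4 with DESeq2. Leaving out 1 library gave 0 to 1 members called for arm II against arm I in GFP-positive cells, 1 to 2 for the difference between the arms in the GFP difference, 1 to 3 for set M, 0 to 1 for CD69+CD103+ against the other subsets, 1 to 4 for the 4 subsets, 2 to 4 for CD69+CD103+ and U against V and W, 0 to 1 for CD69+CD103+ and W, 2 to 4 for the later days against day 2 and 2 to 4 among P, Q, R and S. Among the day 1 descriptions, Cish in arm I and Socs1 between the arms missed the threshold without single libraries of those cells. Dusp4 by GFP state missed it under 5 of 22 alternatives over both arms and under 13 of 22 in arm II, among them the replicate block, no filter and libraries of other cells. Over all genes, calls rose without the filter and with DESeq2: from 103 to 310 and 299 for the difference between the arms, 409 to 635 and 755 in K, 104 to 297 and 262 in L, 45 to 173 and 109 for CD69+CD103+, 148 to 570 and 482 over the 4 subsets, 203 to 422 and 446 for CD69+CD103+ and U, 4 to 81 and 35 for CD69+CD103+ and V, 37 to 144 and 107 for CD69+CD103+ and W, 259 to 943 and 865 among P, Q, R and S, 204 to 537 and 556 for R and S, 58 to 238 and 245 for Q and S, 49 to 283 and 262 for Q and R, and 367 to 626 and 650 between the arms in GFP-positive cells. With DESeq2 they also rose from 621 to 979 and 935 to 1457 for GFP state in arm I and arm II, 775 to 1238 between the arms in GFP-negative cells, 814 to 1259 for day 1 GFP-negative cells, 1101 to 1775 over day 0, K, L and M and 528 to 906 in M. Leaving out 1 library lowered the calls over all genes to as few as 312 for GFP state in arm I, 356 and 179 between the arms in GFP-negative and GFP-positive cells, 47 for the difference between the arms, 511 for day 1 GFP-negative cells, 233, 39 and 212 in K, L and M, 18 for CD69+CD103+, 89 and 20 for CD69+CD103+ with U and with W, 401 for the later days (from 1005), 120 for R and S and 28 for Q and S. It raised them to as many as 74 for CD69+CD103+, 24 and 56 for CD69+CD103+ with V and with W, and 78 for Q and R. With 2 libraries a set, SEs are wide for Dusp5 and for Pik3ip1 at low counts.

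Sample letters did not pair libraries: over 28 pairs of sets the correlation of same-letter deviations ran from -0.060 to 0.033. With the replicate block, 3 instead of 5 members were called in day 1 GFP-negative cells against day 0, Dusp1 and Cish being lost, 3 instead of 4 in the F test over day 0, K, L and M, and 2 instead of 3 in M, Dusp1 being lost (adjusted p = 0.0853), and in arm II by GFP state, Dusp4 being lost. Over all genes 466 instead of 814 were called in day 1 GFP-negative cells, 67 instead of 104 in L and 304 instead of 528 in M. In the second experiment no paired analysis was possible because the headers carry no letters.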
